A study of Homo sapiens with 8 samples.

Results

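The genes described here are those of the switch that commits a cell to divide: the D-type cyclins CCND1 and CCND3, their kinases CDK4 and CDK6, the E-type cyclins CCNE1 and CCNE2 with their kinase CDK2, and the pocket proteins RB1, RBL1 (p107) and RBL2 (p130). These 10 genes were taken by name from the 18955 genes in the table of unique molecular identifiers (UMIs), and all 10 were present and passed the filter on low counts. The cells were SUM159, a triple-negative breast cancer line, carrying a lentiviral barcode library. They were kept for up to 18 passages in drug or vehicle, the replicate cultures of each arm were mixed in equal numbers, and each mixture was sequenced as 1 droplet 3′ library. The 8 libraries were Pre (cells before treatment), DMSO (vehicle), Tax (0.6 nM paclitaxel), JQ1-A (100 nM JQ1), JQ1+Tax (both drugs), Pal (160 nM palbociclib), JQ1-B (a separate 100 nM JQ1 selection) and JQ1+Pal (both drugs). DMSO, Tax, JQ1-A and JQ1+Tax belonged to the paclitaxel experiment, and Pal, JQ1-B and JQ1+Pal to the palbociclib experiment, which has no vehicle library here. JQ1 displaces BET proteins from acetylated chromatin, palbociclib inhibits the CDK4 and CDK6 kinases, and paclitaxel stabilises microtubules. The study describes the loss of a JQ1 and palbociclib culture during selection, and how many cultures went into that mixture is not stated. Only JQ1 alone was sequenced from separate selections, and because the replicate cultures were mixed, p-values measure the spread between libraries and not between cultures.

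As background, growth signals raise the D-type cyclins, which activate CDK4 and CDK6 to phosphorylate the pocket proteins. RB1, RBL1 and RBL2 hold E2F transcription factors in check, and their phosphorylation frees E2F to switch on genes for DNA replication, among them the E-type cyclins. Cyclin E then activates CDK2, which phosphorylates the pocket proteins further as S phase begins. The genes of this switch are frequently altered in breast cancer, and CDK4 and CDK6 inhibitors act on cells that retain RB1.

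Libraries held 459 to 1024 cells and 10621159 (DMSO) to 24240835 (JQ1+Pal) UMIs, with a mean of 22304.6 to 24170.8 UMIs per cell. Levels are given as CPM, the usual scaling of a gene's UMIs to the total of its library, with exact 95% Poisson intervals where an interval is given. UMIs tag the 3′ ends of molecules and were not scaled by gene length, and the intervals cover counting error only. A CPM is a share of the RNA captured, so that fewer cells with a transcript and less of it per cell cannot be told apart in these sums. The libraries matched the line: VIM, a mesenchymal filament gene, was at 3279 to 4502 CPM, and the hormone receptor genes ESR1 and PGR gave at most 3 and 2 UMIs in any library. ERBB2, a receptor gene not amplified in such lines, was at 5.319 to 12 CPM and was called higher with JQ1 (log2 change 0.82 ± 0.18, adjusted p = 0.0106). Of 6 markers of other cell types, CD3E, PECAM1, CDH5 and HBB were not in the table, and the others, PTPRC and COL3A1, summed to 0.2063 to 0.9888 CPM with JQ1 and 0.5501 to 1.915 CPM without. A total of 13 cell barcodes occurred in more than 1 library (26 of 5738 cells).

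The promoters of 7 of the 10 genes were listed among RefSeq promoter sequences (GRCh38.p14). No promoter was listed for CCND1, CCNE2 or CDK2. All 7 genes were called in a phase comparison below, and CDK4 and RB1 also with JQ1. Among the 7, only CDK4 and RBL1 held a match to the letters searched for. The promoters of CDK4, RBL1 and CCNE1 are shown. Each is the 250 bases before the listed start, 5′ to 3′ on the strand of the gene, with capitals marking the hexamer CACGTG (the E-box of MYC and related factors, a palindrome) and the octamers TTTCCCGC, TTTGGCGC, TTTCGCGC and TTTGCCGC (forms of the E2F element, searched on both strands). The sequences are those of CDK4 (chr12:57752311-57752560, minus strand), RBL1 (chr20:37095998-37096247, minus strand) and CCNE1 (chr19:29811741-29811990, plus strand).
CDK4: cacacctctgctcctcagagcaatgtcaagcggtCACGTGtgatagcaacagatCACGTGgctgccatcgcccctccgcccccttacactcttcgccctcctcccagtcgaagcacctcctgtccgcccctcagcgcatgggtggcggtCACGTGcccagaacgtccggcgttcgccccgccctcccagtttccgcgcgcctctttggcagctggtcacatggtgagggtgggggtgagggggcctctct
RBL1: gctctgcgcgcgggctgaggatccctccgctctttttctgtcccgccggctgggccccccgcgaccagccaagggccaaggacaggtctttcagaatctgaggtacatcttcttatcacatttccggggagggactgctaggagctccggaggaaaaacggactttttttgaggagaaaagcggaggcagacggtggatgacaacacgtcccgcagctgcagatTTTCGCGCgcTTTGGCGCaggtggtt
CCNE1: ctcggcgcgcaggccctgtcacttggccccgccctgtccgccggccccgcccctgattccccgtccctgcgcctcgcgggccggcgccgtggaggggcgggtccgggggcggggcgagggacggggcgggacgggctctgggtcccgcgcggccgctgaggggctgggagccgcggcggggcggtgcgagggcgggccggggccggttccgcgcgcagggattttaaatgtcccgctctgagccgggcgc
The CDK4 promoter held 3 CACGTG matches, starting 216, 196 and 101 bases before the listed start, and RBL1 held TTTCGCGC and TTTGGCGC, starting 26 and 16 bases before it. Among 35116 promoters of the same length, 6.34% held at least 1 CACGTG match and 0.0797% at least 3, while 2.79% held at least 1 of the E2F octamers and 0.122% at least 2. None of these letters was found in the window of CCNE1, and none in those listed for CCND3, CDK6, RB1 or RBL2. A match is a match of letters and was not measured as a bound site.

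CCND1 (GRCh37 chr11:69455924-69469242, plus strand) encodes cyclin D1, the D-type cyclin with most UMIs here. It stood at 193.2 CPM in Pre, 180.6 in DMSO, 348.5 in Tax, 253.4 in JQ1-A, 204.4 in JQ1+Tax, 235.8 in Pal, 296.9 in JQ1-B and 443.1 in JQ1+Pal. JQ1+Pal was the highest and Tax the second, and the libraries with and without JQ1 overlapped, with means of 299.4 ± 103 and 239.5 ± 76.4 CPM (SD, n = 4 each). The other D-type cyclin described here, CCND3 (chr6:41902672-42018095, minus strand), ranged less, from 78.3 CPM in JQ1+Tax through 109 in Pre and 112.1 in DMSO to 138.3 in Tax. CCND3 was at 91.77 CPM in JQ1-A, 106.1 in Pal, 107.2 in JQ1-B and 112.9 in JQ1+Pal. Apart from Tax, JQ1+Tax and JQ1-A, its libraries lay close together.

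CDK4 (chr12:58141510-58149796, minus strand), the kinase partner of the D-type cyclins and a target of palbociclib, was at 226.6 CPM in Pre, 184.4 in DMSO and 273.8 in Tax. The 5 other libraries lay in a narrow band, at 118.4 CPM in JQ1-A, 129.1 in JQ1+Tax, 139 in Pal, 141.6 in JQ1-B and 130.1 in JQ1+Pal. CDK4 was thus low in every library that had seen JQ1 or palbociclib and high in the others. CDK6 (chr7:92234235-92465887, minus strand), the related kinase, did not follow it, with 22.05 CPM in Pre, 16.76 in DMSO, 28.61 in Tax, 17.49 in JQ1-A, 13.53 in JQ1+Tax, 25.07 in Pal, 24.04 in JQ1-B and 28.79 in JQ1+Pal. The 3 libraries of the palbociclib experiment were all above the 2 JQ1 libraries of the paclitaxel experiment for CDK6.

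CCNE1 (chr19:30302898-30315219, plus strand), which encodes cyclin E1, had the widest range of the 10 genes, 3.99-fold between its lowest and highest library. It was at 8.297 CPM in Pre, 6.496 in DMSO, 16.01 in Tax, 4.017 in JQ1-A, 4.323 in JQ1+Tax, 7.853 in Pal, 5.665 in JQ1-B and 10.68 in JQ1+Pal. As for CCND1, Tax and JQ1+Pal were the 2 highest libraries. CCNE2, which encodes cyclin E2, was sparser and ordered differently, with 5.602 CPM in Pre, 5.649 in DMSO, 6.437 in Tax, 3.584 in JQ1-A, 3.417 in JQ1+Tax, 2.598 in Pal, 3.842 in JQ1-B and 5.157 in JQ1+Pal. The Poisson intervals of most neighbouring libraries overlapped for CCNE2, whose totals were 43 to 125 UMIs a library. CDK2 (chr12:56360565-56366573, plus strand), the kinase of the E-type cyclins, was at 11.98 CPM in Pre, 13.75 in DMSO and 13.37 in Tax, and at 6.921 in JQ1-A, 8.646 in JQ1+Tax, 7.914 in Pal, 8.472 in JQ1-B and 7.26 in JQ1+Pal. CDK2 therefore divided the libraries in the same way as CDK4.

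RB1 (chr13:48877880-49173572, plus strand), the founding pocket protein gene, was at 8.935 CPM in Pre, 8.379 in DMSO, 8.417 in Tax and 10.09 in Pal, against 12.73 in JQ1-A, 13.74 in JQ1+Tax, 13.2 in JQ1-B and 12.33 in JQ1+Pal. It was the only 1 of the 10 genes whose libraries with and without JQ1 did not overlap, a pattern shown by 28.2% of the 9288 genes tested. The study reports a nonsense mutation of RB1 in part of the cells selected with JQ1 and palbociclib. These counts do not tell mutant from intact RB1 transcripts. RBL1 (chr20:35624752-35724400, minus strand), itself an E2F target gene, was at 5.319 CPM in Pre, 5.084 in DMSO, 8.142 in Tax, 4.82 in JQ1-A, 3.486 in JQ1+Tax, 4.108 in Pal, 5.32 in JQ1-B and 5.61 in JQ1+Pal. RBL2 (chr16:53467889-53525560, plus strand), the pocket protein of resting cells, was lowest in Tax and highest in Pal, at 7.517 CPM in Pre, 11.67 in DMSO, 6.382 in Tax, 11.93 in JQ1-A, 10.95 in JQ1+Tax, 16.13 in Pal, 7.832 in JQ1-B and 10.07 in JQ1+Pal. The 3 pocket protein genes thus followed 3 different orders of libraries.

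**Figure D1:**
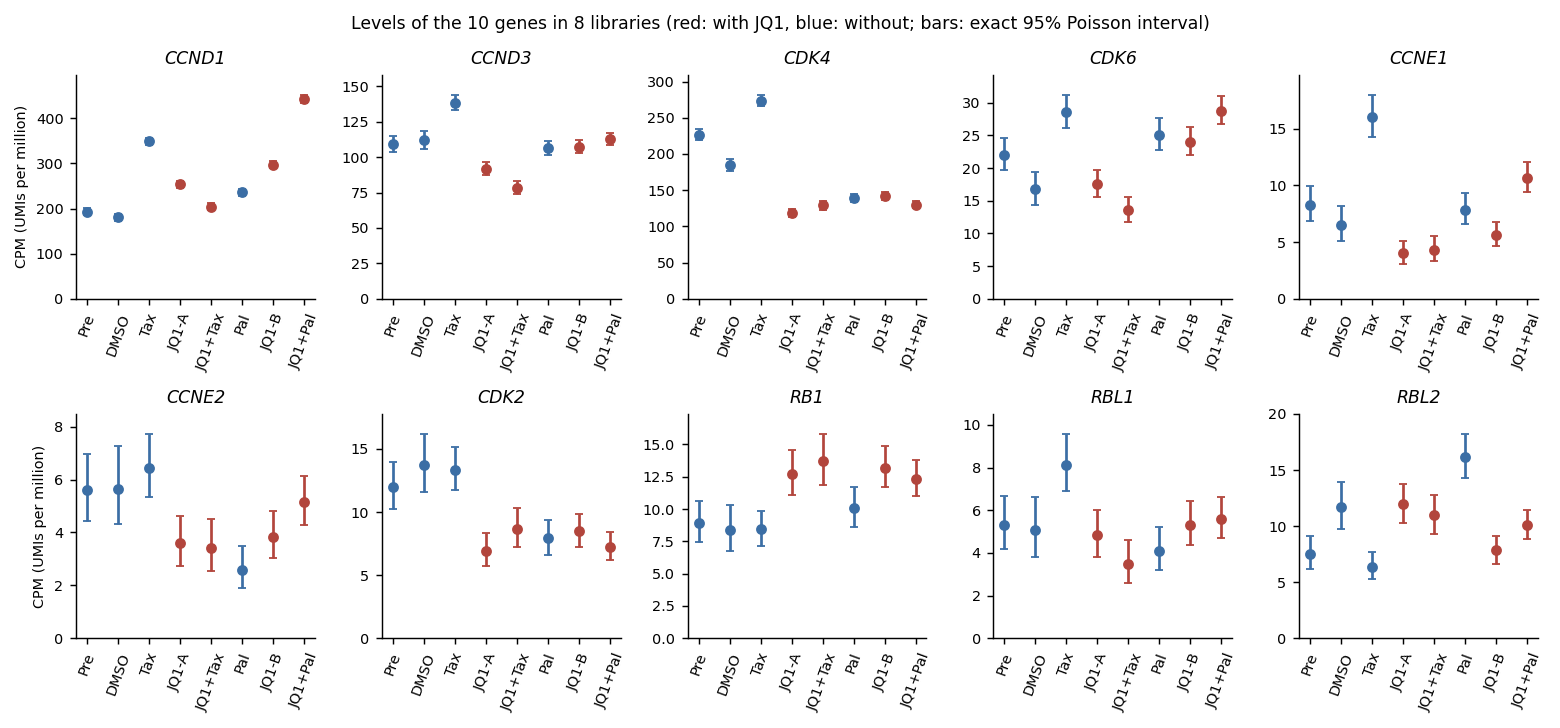
Level of each of the 10 genes (y axis, CPM, from 0) in each library (x axis), red with JQ1 and blue without, with exact 95% Poisson intervals of the counts. RB1 lies at 12.33 to 13.74 CPM in the 4 red libraries and at 8.379 to 10.09 in the 4 blue ones, and for CDK4 the Pal library sits among the red ones.

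The libraries with JQ1 were compared with those without by edgeR's quasi-likelihood test, with palbociclib and paclitaxel as further terms and p-values adjusted by the Benjamini-Hochberg method over all 9288 genes tested. RB1 rose by 0.73 ± 0.14 on the log2 scale (SE, 4 libraries against 4, adjusted p = 0.00556) and CDK4 fell by 0.43 ± 0.14 (adjusted p = 0.0391). These were the 2 of 10 genes called at an adjusted p under 0.05, a rule that called 37.6% of all genes, 17.8% higher and 19.7% lower. The group means were 13 ± 0.605 CPM with JQ1 and 8.955 ± 0.797 without for RB1 (SD, n = 4 each), and 129.8 ± 9.49 and 206 ± 57.7 for CDK4. Both directions held without TMM scaling, at 0.54 for RB1 and -0.63 for CDK4. The RB1 call held when any 1 library was left out, with adjusted p of at most 0.0271. The CDK4 call was lost without Pre, DMSO, Tax, JQ1-A, JQ1+Tax or JQ1-B (adjusted p up to 0.127) and held without Pal or JQ1+Pal (log2 change -0.53 and -0.56). It was also lost with experiment as a term (adjusted p = 0.0719), where RB1 was the only 1 of the 10 genes called.

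The other 8 genes did not pass in the JQ1 comparison in edgeR, while DESeq2 called CCND1 as well (adjusted p = 0.0334), and edgeR without TMM scaling called CDK2 (0.0205). CCND1 had a fitted log2 change of 0.52 ± 0.22 (adjusted p = 0.0966), CDK2 of -0.36 ± 0.14 (0.0696) and CCNE1 of -0.45 ± 0.31 (0.272). Leaving out 1 paclitaxel library moved CCND1 across the threshold, to 0.84 without Tax (adjusted p = 0.00131) and 0.85 without JQ1+Tax (0.00117), and brought CCNE1 close to 0, at -0.06 without either. Without Pal or JQ1+Pal, CCNE1 passed at -0.78 and -0.80 (adjusted p = 0.0457 and 0.043), and CDK2 passed at -0.42 and -0.45 (0.0399 and 0.0329). CCND3, CDK6, CCNE2, RBL1 and RBL2 had fitted changes between -0.09 and 0.23. Within the 4 libraries of the paclitaxel experiment, RB1 rose by 0.95 and RBL2 by 0.69, while CDK4 fell by 0.57 and CCNE1 by 1.04 (adjusted p = 0.00507, 0.0419, 0.0224 and 0.0118), and CCND1 was at 0.15 (0.632). Each arm there is 1 library with no replicate, so these p-values rest on the drug effects being additive.

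For palbociclib, 0 of the 10 genes passed, and neither did most others: 0.28% of genes were called, 26 of 9288 in edgeR and 515 in DESeq2, with 2056 below 0.05 before adjustment. The largest fitted changes among the 10 were CCNE1 at 0.73 ± 0.36, CCND1 at 0.57 ± 0.26, RBL2 at 0.49 ± 0.33 and CDK6 at 0.46 ± 0.25 on the log2 scale (adjusted p = 0.268, 0.241, 0.411 and 0.317, 2 libraries against 6). DESeq2 called 0 of the 10 genes. These values leaned on single libraries: without JQ1+Pal, CCNE1 was at 0.0003 and CCND1 at 0.25, and without Pal, RBL2 was at -0.14 and CCNE1 at 1.29. CCND1 passed at 0.56 when Tax or JQ1+Tax was left out (adjusted p = 0.037 and 0.0359), settings in which 482 and 497 genes were called over the whole table. For paclitaxel the call rate was 0%, with 395 genes at an unadjusted p under 0.05 and 9 called by DESeq2, and among the 10 genes the largest fitted change was 0.65 ± 0.37 for CCNE1 (adjusted p = 0.885), which was at -0.28 without Tax and 1.27 without JQ1+Tax.

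**Figure D2:**
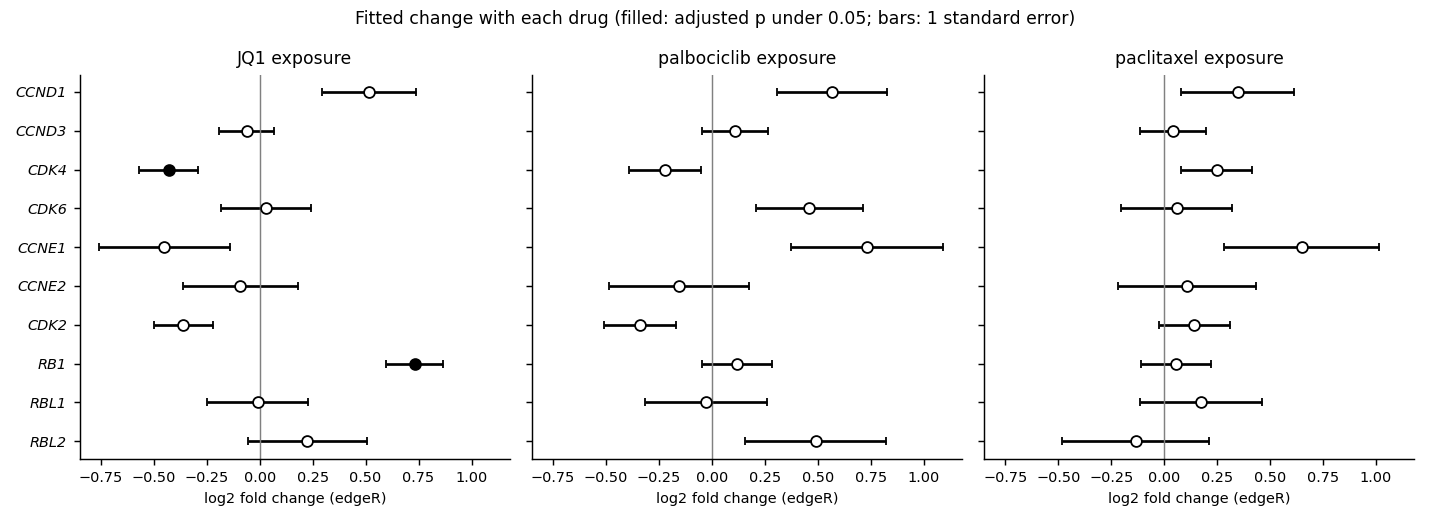
Fitted log2 fold change (x axis) of each gene (y axis) with JQ1, palbociclib and paclitaxel, with bars of 1 standard error and filled points at an adjusted p under 0.05. The filled points are RB1 (0.73) and CDK4 (-0.43) with JQ1, and no point is filled for the other drugs.

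A fit in which each partner drug may act differently with and without JQ1 was added after these values were seen, and leaves 2 residual degrees of freedom, which come from Pre against DMSO and JQ1-A against JQ1-B. Tax and JQ1+Tax are single libraries, assumed in the fit to vary like those pairs. CCND1 was the only 1 of the 10 genes called in it: the paclitaxel effect was lower with JQ1 by 1.28 ± 0.20 on the log2 scale (adjusted p = 0.0327), in a comparison that called 0.388% of genes. Without JQ1, Tax was 1.93-fold above DMSO for CCND1 (95% interval 1.83 to 2.03), and with JQ1, JQ1+Tax was 0.806-fold of JQ1-A (0.769 to 0.846). These are ratios of single libraries with no replicate check, and their intervals cover counting error only. The difference was below 0 for 7 of the 10 genes, and apart from CCND1 none passed: CCNE1, CDK6, RBL1 and CCND3 are given here, CDK4 was at -0.38 and CCNE2 at -0.27. For 5 of the 10 genes Tax lay above or below both Pre and DMSO while JQ1+Tax lay on the opposite side of both JQ1 libraries, a pattern shown by 30.4% of all genes tested. For CCNE1 the ratios were 2.46 (1.89 to 3.25) without JQ1 and 1.08 (0.748 to 1.55) with it, and the difference was -1.23 ± 0.38 (adjusted p = 0.176). For CDK6 they were 1.71 (1.44 to 2.04) and 0.773 (0.641 to 0.932), with a difference of -1.13 ± 0.32 (0.164). RBL1 gave 1.6 (1.17 to 2.23) and 0.723 (0.497 to 1.04), and CCND3 gave 1.23 (1.15 to 1.32) and 0.853 (0.789 to 0.923), with differences of -1.14 ± 0.37 and -0.63 ± 0.20 (0.189 and 0.18). CDK4 gave 1.48 (1.41 to 1.57) and 1.09 (1.02 to 1.16). CDK2 and RB1 showed ratios near 1 for paclitaxel without JQ1, at 0.973 (0.789 to 1.2) and 1 (0.769 to 1.32). RBL2 went the other way, at 0.547 (0.421 to 0.71) without JQ1 and 0.918 (0.739 to 1.14) with it, a difference of 0.77. The higher CCND1 in Tax was seen in each class called by cell cycle genes, with 318, 291 and 385 CPM in G1, S and G2/M cells of Tax against 194, 183 and 188 in DMSO, and 219, 194 and 193 in JQ1+Tax against 257, 265 and 246 in JQ1-A. These classes were less separated in Tax. The summed S-phase genes used to call them stood at 1693 CPM in G1 cells of Tax and 1018 in those of DMSO. Their level in S cells was 1.44 times that in G1 cells in Tax and 2.1 times in DMSO.

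For palbociclib the same fit called 0.0108% of genes and 0 of the 10 (DESeq2 was not run on it). The smallest p was that of CCNE2, with a difference of 1.41 ± 0.39 on the log2 scale (unadjusted p = 0.00527, adjusted p = 0.157). CCNE2 in Pal was 0.46-fold of DMSO (0.303 to 0.692), and in JQ1+Pal 1.34-fold of JQ1-B (1 to 1.8). The same opposite placing was seen for 4 of the 10 genes with palbociclib, against 20.8% of all genes. CCND1 was higher with palbociclib in both settings, 1.31-fold (1.24 to 1.38) for Pal over DMSO and 1.49-fold (1.45 to 1.54) for JQ1+Pal over JQ1-B, and 2.45-fold (2.34 to 2.58) for JQ1+Pal over DMSO. CCNE1 was 1.89-fold (1.51 to 2.37) for JQ1+Pal over JQ1-B, and RB1 0.934-fold (0.79 to 1.11). Pal and DMSO come from different experiments, so that drug and experiment cannot be told apart in their ratio. The only same-drug comparison, JQ1-B over JQ1-A, gave 1.17 for CCND1 (1.13 to 1.22), 1.37 for CDK6 (1.18 to 1.6), 1.41 for CCNE1 (1.03 to 1.94) and 0.657 for RBL2 (0.529 to 0.814), against 1.04 for RB1 (0.862 to 1.25). In the same pair CDK4 gave 1.2 (1.13 to 1.27) and CCND3 1.17 (1.09 to 1.25), while the intervals of CDK2, CCNE2 and RBL1 included 1. Libraries of 1 drug thus differed too, in the 1 pair available. For CCND1 and CCNE1 that pair differed by less than JQ1+Pal from JQ1-B, with overlapping intervals for CCNE1.

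**Figure D3:**
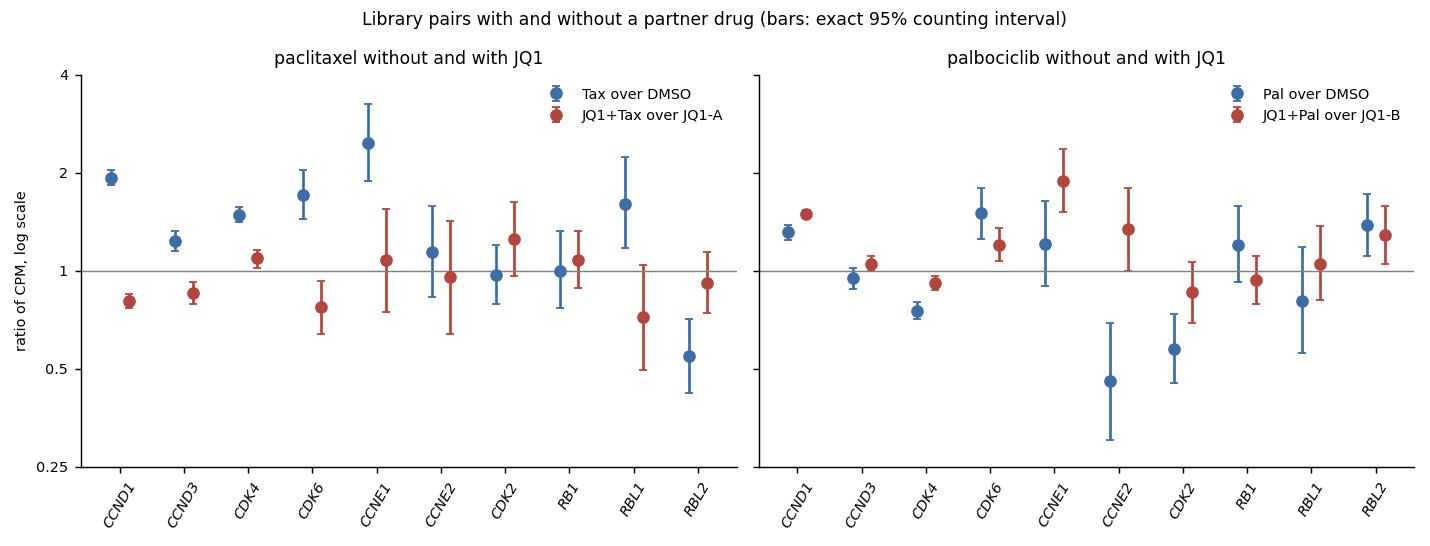
Ratio of CPM (y axis, log scale) for library pairs with and without paclitaxel (left) or palbociclib (right), blue without JQ1 and red with it, with exact 95% counting intervals. For CCND1 the paclitaxel ratio is 1.93 without JQ1 and 0.806 with it, and for palbociclib both ratios are above 1.

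To see where in the cell cycle the genes were expressed, cells were called G1, S or G2/M in each library from 1 random share of their UMIs, and the genes were then measured in the remaining UMIs. CCNE2 belongs to the S-phase list used for such calls and was removed from it. S cells were compared with G1 cells in edgeR, with library as a block. In S cells, 8 of the 10 genes were called, 6 higher and 2 lower, where the same rule called 29.3% of 9016 genes (14.8% higher and 14.6% lower). The median log2 change of the 10 genes was 0.453, against -0.02 over all genes tested. In G2/M cells 7 of the 10 were called, 4 higher and 3 lower, against 35.7% of all genes (16.8% and 18.9%), with a median of -0.161 against -0.022.

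The E-type cyclins peaked in S cells. CCNE2 was at 7.79 to 12.7 CPM in S cells (median 11, 8 libraries), against 0 to 6.06 in G1 cells (median 1.76) and 0.759 to 3.21 in G2/M cells (median 1.27). S cells lay above both other classes in all 8 libraries, and the S class did not overlap either of them. CCNE2 rose by 2.44 ± 0.26 in S against G1 cells (adjusted p = 6.71e-08), the largest change of the 10 genes. CCNE1 was already present in G1 cells, at 2.4 to 22 CPM (median 7.24), was at 7.26 to 27.7 in S cells (median 11.9), and dropped to 0.759 to 4.86 in G2/M cells (median 2.81). The highest G1 values of both genes, 22 and 6.06 CPM, were those of Tax. Its G1 cells also held the most of the summed S-phase list, at 1693 CPM. CCNE1 rose by 0.75 ± 0.14 in S cells (adjusted p = 0.000175, 7 of 8 libraries) and fell by 1.65 ± 0.20 in G2/M against G1 cells (1.19e-07, 8 of 8 libraries), whereas CCNE2 did not pass in G2/M cells (-0.59 ± 0.41, 0.285). CDK2, the partner kinase, rose by 0.93 ± 0.17 in S cells (adjusted p = 6.9e-05) and 0.62 ± 0.17 in G2/M cells (0.00499), both higher in 8 of 8 libraries, with medians of 4.91, 13.1 and 10.5 CPM in G1, S and G2/M.

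The D-type cyclins varied little over the cycle. CCND1 had medians of 238, 257 and 245 CPM in G1, S and G2/M cells and passed in neither comparison (-0.11 ± 0.06 and -0.10 ± 0.06 on the log2 scale, adjusted p = 0.139 and 0.173). S cells were above G1 cells in 4 of 8 libraries for CCND1, which passed in S cells when phase was scored across libraries and when UMIs were not divided. In G2/M cells CCND1 passed when phase was scored across libraries (-0.13, adjusted p = 0.0422) and without Tax (-0.17, 0.00721). CCND3 fell by 0.17 ± 0.05 in S cells (adjusted p = 0.0153) and by 0.30 ± 0.05 in G2/M cells (3.14e-05), each in 7 of 8 libraries. CDK4 rose with S phase by 0.42 ± 0.07 (adjusted p = 5.05e-05) and was 0.28 ± 0.07 higher in G2/M cells (0.00333), with S above G1 in 8 of 8 libraries and medians of 113, 178 and 164 CPM. CDK6 was at 0.01 ± 0.11 in S cells (adjusted p = 0.961) and fell by 0.45 ± 0.12 in G2/M against G1 cells (0.0028), although G2/M cells were above G1 cells in 3 of 8 libraries (Pre, DMSO and JQ1-B).

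The pocket protein genes split. RBL1 rose by 0.95 ± 0.20 in S cells (adjusted p = 0.000611, 8 of 8 libraries), from a median of 3.05 CPM in G1 to 7.28 in S and 5.4 in G2/M. Its rise in G2/M cells of 0.59 ± 0.21 (adjusted p = 0.026) lost its call without JQ1-A, JQ1-B, JQ1+Tax or Pal (adjusted p up to 0.109) and with DESeq2. RB1 rose by 0.48 ± 0.13 in S cells (adjusted p = 0.00613, 7 of 8 libraries) and by 0.45 ± 0.13 in G2/M cells (0.00816), the latter not called without JQ1+Tax (0.0632). RBL2 went the other way and fell by 0.67 ± 0.17 in S cells (adjusted p = 0.00347), with medians of 11.2, 6.98 and 10.6 CPM, and only Pre had more in S than in G1 cells. The other S-phase and G2/M calls among the 10 genes held with each library left out in turn, except that CCNE2 was below the filter without Tax and was not tested there.

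**Figure D4:**
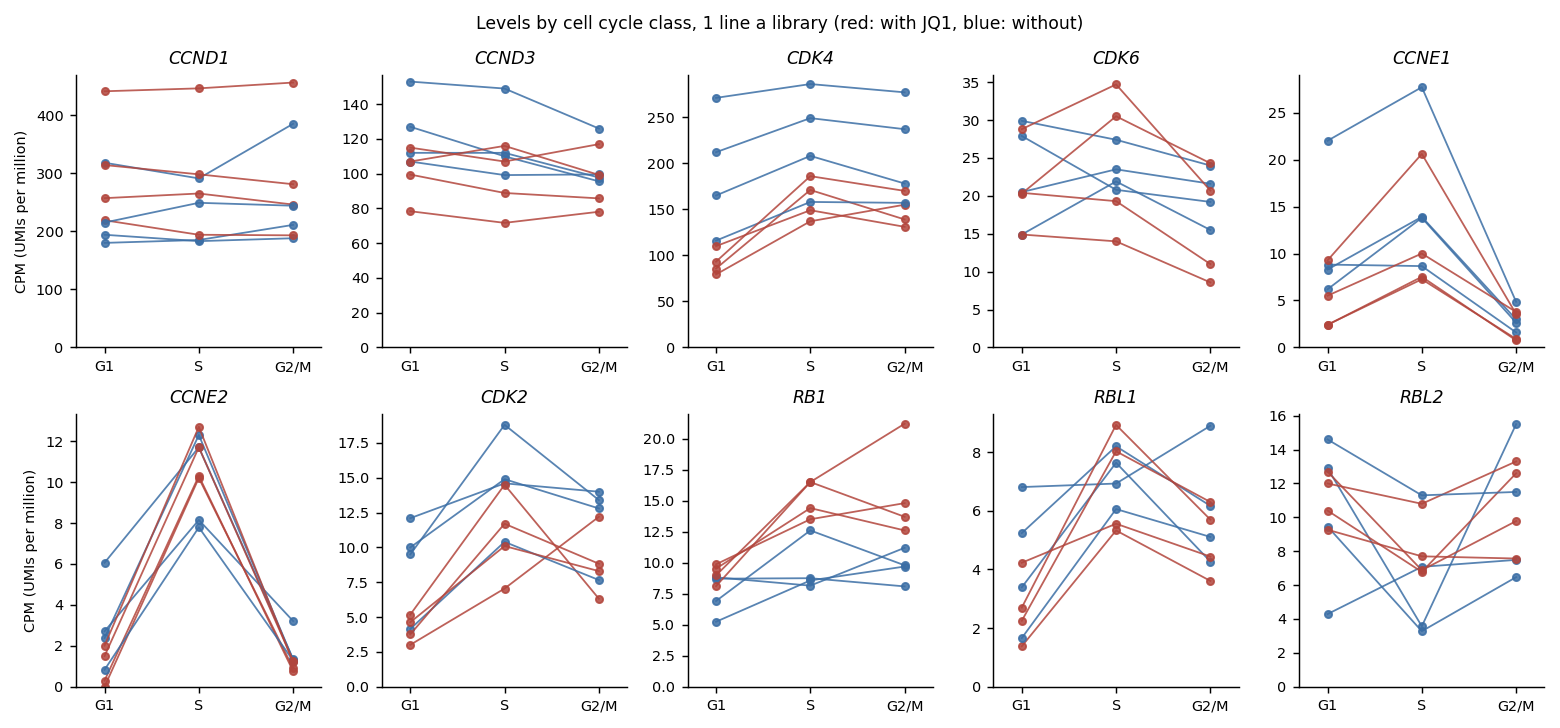
Level of each gene (y axis, CPM, from 0) in cells called G1, S or G2/M (x axis), 1 line a library, red with JQ1 and blue without. CCNE2 peaks in S cells of all 8 libraries (7.79 to 12.7 CPM), CCNE1 is lowest in G2/M cells of all 8, and the CDK4 lines of the JQ1 libraries start at 79.3 to 110 CPM in G1 cells.

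The drug comparison was then repeated inside each class, a choice made after the results above were seen. Classes were called within each library, so that phase composition inside a class could still differ between libraries. With JQ1, CCND1 rose by 0.69 ± 0.19 in G1 cells (adjusted p = 0.035) and by 0.55 ± 0.17 in S cells (0.0288), and was at 0.34 ± 0.22 in G2/M cells (0.276). CDK4 fell by 0.74 ± 0.19 in G1 cells (adjusted p = 0.0274), and was at -0.29 ± 0.13 in S cells (0.107) and -0.34 ± 0.14 in G2/M cells (0.0969). RB1 rose by 0.83 ± 0.23 in S cells (adjusted p = 0.017) and 0.85 ± 0.22 in G2/M cells (0.0172), and was at 0.57 ± 0.24 in G1 cells (0.118). A test of the difference itself found the S-to-G1 step of CDK4 larger with JQ1 by 0.44 ± 0.11 (adjusted p = 0.0416, in a test that called 0.898% of genes). For the step from G1 to G2/M, CDK4 was larger with JQ1 by 0.41 ± 0.11 (0.0417) and CCND1 smaller by 0.35 ± 0.09 (0.0376), where 2.06% of genes were called. In G1 cells CDK4 was at 79.3, 85.7, 93.2 and 110 CPM in JQ1-A, JQ1+Tax, JQ1-B and JQ1+Pal, against 212, 165, 271 and 116 in Pre, DMSO, Tax and Pal.

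These differences between steps changed with the processing. With phase scored across all libraries together, the adjusted p of CDK4 was 0.591 in S and 0.59 in G2/M cells and that of CCND1 was 0.389. CDK4 also lost both calls without Pre, DMSO, Tax, JQ1-A, JQ1+Tax or JQ1-B (adjusted p up to 0.267 and 0.245), and CCND1 lost its call without Pre, Tax, JQ1-A, JQ1+Tax or JQ1-B (up to 0.288), while their directions held. The class called G1 also differed between libraries, since the summed S-phase list stood at 374.8 to 570.1 CPM in G1 cells of the JQ1 libraries and 473.4 in Pal, against 1018 in Pre and in DMSO and 1693 in Tax. Cells within 0.05 score units of a class limit were 25.3 to 42.7% of each library. The part of this in the differences between steps, and in the drug comparisons inside each class, was not tested.

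Per cell, the genes fell into those seen in most cells and those seen in few. After thinning each cell to 10000 UMIs (5487 of 5738 cells, 445 to 972 a library), CCND1 was found in 76.7 to 95.6% of cells, CDK4 in 66.3 to 91.4% and CCND3 in 56.6 to 73.5%. The highest share of the other 7 genes was 24.8%, of CDK6 in JQ1+Pal. RB1 was found in 12 to 13.3% of cells with JQ1 and 7.42 to 9.67% without. These shares did not overlap, but they come from the same UMIs as the CPM of RB1 and are not a separate result. Their counting intervals did overlap, for example at 7.52 to 12.2% in Pal and 9.6 to 14.7% in JQ1-A. How often shares of cells separate in this way over all genes was not counted. ESR1, which the line should lack, was found in at most 0.154% of thinned cells. Without thinning the shares were higher, for example 90.6 to 98.7% for CCND1 and 17.2 to 26% for RB1. The mean number of CCND1 UMIs per thinned cell was 1.81 in DMSO, 3.36 in Tax and 4.51 in JQ1+Pal, with medians of 2, 3 and 4 and a variance of 1.49, 1.84 and 1.84 times the mean. The higher level in Tax and JQ1+Pal was thus spread over most cells.

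Relations between the 10 genes across cells were weak, and are described without a test, since cells share their library and the counts are sparse. Over the 45 pairs, the median correlation within libraries lay between -0.038 (CCND3 and RBL2) and 0.071 (CCNE1 and CCNE2). CCNE1 and CCNE2 were correlated above 0 in 8 of 8 libraries (0.002 to 0.143), and 41 of the 5487 cells held both where independence within libraries gives 19.1. With all UMIs in place of thinned ones that median was 0.156. CDK4 and RBL1 were also above 0 in 8 of 8 libraries, with a median of 0.019. CCND1 and its kinases had medians of 0.035 (CDK4) and 0.02 (CDK6), and cells with both CCND1 and CDK4 were as many as independence gives (3543 against 3537).

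Of 62 other genes around the switch that were tested, 19 fell and 5 rose with JQ1 (edgeR), with a median log2 change of -0.217, where 19.7% of all genes fell and 17.8% rose. The counts of the small lists are descriptions to be read against those shares. Cells called G1 were 314 of 697 in JQ1-A, 294 of 643 in JQ1+Tax, 373 of 868 in JQ1-B and 471 of 1024 in JQ1+Pal. Without JQ1 they were 205 of 602 in Pre, 154 of 459 in DMSO, 242 of 752 in Tax and 335 of 693 in Pal. Because phase was called within each library, these shares do not compare the same class between libraries. Many of the listed genes were higher in S or G2/M cells, and the part of phase in their change with JQ1 was not tested. Of 8 other cyclins and kinases tested, 5 fell and 0 rose, among them CCNA2 by 0.97 ± 0.14 (adjusted p = 0.00231), CCNB1 by 0.91 ± 0.13 (0.00245), which encode the cyclins of S phase and mitosis, and CCNH by 0.61 ± 0.11 (0.00575), part of the CDK-activating kinase. Of 22 E2F target genes, 8 fell and only TK1 rose, by 0.28 ± 0.09 (0.0424), with a median of -0.363 against -0.003 over all genes. Those that fell included the replication factors CDC45 by 0.96 ± 0.14 (0.00268), POLA1 by 0.85 ± 0.19 (0.0109) and MCM5 by 0.63 ± 0.13 (0.00726). Of 4 CDK inhibitors, CDKN1A, which encodes p21, rose by 1.07 ± 0.20 (0.0059) and the others did not pass. Of 5 phosphatases and kinases that act on CDKs, PKMYT1 and CDC25C fell by 0.79 ± 0.19 and 0.70 ± 0.20 (0.0146 and 0.0241), WEE1 rose by 0.65 ± 0.12 (0.00564), and CDC25B rose by 0.55 ± 0.11 (0.00804). Among 7 E2F and DP factors only TFDP1, an E2F partner, fell (0.50 ± 0.09, 0.00443), among 4 MuvB and MYB genes only MYBL2 fell (0.64 ± 0.13, 0.00827). Among 12 genes of cyclin and inhibitor turnover FBXW7, the substrate receptor that marks cyclin E for destruction, rose by 0.59 ± 0.16 (0.0228) while FBXO4 and SKP2 fell by 0.72 ± 0.16 and 0.45 ± 0.14 (0.0116 and 0.0352). Without TMM scaling the median of all genes with JQ1 was -0.198, and 865 genes were called higher and 2912 lower, in place of 1655 and 1833. Of the same 62 genes, edgeR called 0 for palbociclib and 0 for paclitaxel, with 21 and 3 at p under 0.05 before adjustment. DESeq2, which called 515 and 9 genes in all, was not counted over these lists.

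Over the cycle, 26 of 43 such genes with no part in the phase calls rose in S cells and 1 fell, where 14.8% and 14.6% of all genes did, and in G2/M cells 22 rose and 2 fell, where 16.8% and 18.9% did. All 7 E2F target genes that had no part in the phase calls rose in S cells, with a median of 1.012, led by CHAF1A at 1.41 ± 0.15 (adjusted p = 6.59e-08). Of 7 E2F and DP factors, 3 rose, with E2F1 at 1.45 ± 0.19 (9.73e-07), and of 4 CDK inhibitors CDKN2D and CDKN2C rose in S cells (0.62 ± 0.12 and 0.41 ± 0.10, 0.000145 and 0.00235). In G2/M cells CDKN2D, CDKN2C and CDKN1B rose by 1.23 ± 0.11, 0.92 ± 0.09 and 0.97 ± 0.19 (3.39e-10, 4.25e-09 and 0.000173), and CDKN1A fell by 0.36 ± 0.09 (0.00318). CCNA2 and CCNB1 rose by 2.45 ± 0.25 and 1.96 ± 0.15 in G2/M cells (5.9e-09 and 1.06e-11), and FOXM1, which drives the genes of mitosis, by 1.49 ± 0.18 (1.26e-07).

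The genes whose pattern over the 8 libraries was most like each of the 10 were sought among 4429 genes (mean CPM of 20 or more), by Pearson correlation of log2(CPM + 1), as a description with no test. For CDK4 they were LYAR, TRABD and CHCHD3 (r = 0.997, 0.996 and 0.995), with LYAR at 95.56 to 228.3 CPM in Pre, DMSO and Tax and 33.99 to 49.01 in the 5 other libraries. For CCND1 they were LRRC58, TMEM259 and MARCKSL1 (0.99, 0.984 and 0.972), and for RB1 they included RPL28 and CIRBP (0.987 and 0.981). CDK2 was matched by ELAVL1 (0.989), CCNE1 by PDCD11 (0.972), CCNE2 by RAD1 (0.965), CCND3 by RNF7 (0.981), CDK6 by FHOD1 (0.951), RBL1 by CHTF8 (0.982) and RBL2 by CCNL1 (0.951). Across cells, the genes most like CCND1 included ACTB, CD59, ANXA2 and TMSB4X (median r = 0.168 to 0.135) and the least like it FTL and RPL21 (-0.184 and -0.146). Those most like CDK4 were RANBP1, RAC1, PTMA, EIF4EBP1 and HMGB1 (0.199 to 0.15), against RPS14, RPS18 and EEF1A1 (-0.153 to -0.133), and for CCND3 the highest was SNX3 (0.122).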

How the data were processed

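Single-cell libraries were made with 10x 3′ v2 chemistry. Per the study's methods the authors aligned reads to hg19 with CellRanger and processed the cells in Seurat, and per the labels the build is hg19. The deposited table holds raw UMI counts per gene and cell, with no normalization, for genes found in at least 3 cells. The authors' metadata file gave each cell's library. The 5738 cells were used as deposited, doublets were not removed, and the study's cell filter (5575 cells) was tried as an alternative. No annotation of cell types was needed. UMIs were summed per library, and genes with at least 5 CPM in at least 2 libraries were tested with edgeR 4.0.16 (TMM, quasi-likelihood, additive terms for JQ1, palbociclib and paclitaxel, 4 residual degrees of freedom). For phase, each UMI was assigned at random to 1 of 2 parts. Seurat 5.3.0 scored the first part within each library (39 S and 54 G2/M genes, which were left out of the tests), and the second part was summed into 24 library-by-phase sums, tested with at least 5 CPM in at least 8. Benjamini-Hochberg adjustment ran over all genes tested, and calls are adjusted p under 0.05. DESeq2 1.42.0, other filters, scaling, cells and left-out libraries were alternatives. On simulated counts, the 5 main comparisons recovered 100% of 200 genes with a log2 change of 2, and called 5 to 13 unchanged genes. Smaller changes, such as those called with JQ1 among the 10 genes, were not simulated, so recovery at their size is not known. Promoters are from RefSeq (GRCh38.p14) and gene positions from GENCODE v44 on GRCh37. The 10 genes, the gene lists and the tests were chosen with earlier results of these data known. The named genes were the 10, up to 3 called genes per list and comparison with the largest change, and the genes most like each of the 10. TK1 and CDC25B with JQ1, and CDKN1A in G2/M cells, were named after their values were seen. Some genes that this rule names are not reported here.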

Additional observations from a re-analysis of the deposited data

Results flagged for a closer look

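Between JQ1 and no JQ1, 3 differences of a phase step had an adjusted p under 0.05 in a test of the difference that was added after the data were seen: CDK4 in S against G1 cells (0.44), CDK4 in G2/M against G1 cells (0.41) and CCND1 in G2/M against G1 cells (-0.35), all on the log2 scale. The paclitaxel effect on CCND1 also differed with and without JQ1 (-1.28, adjusted p = 0.0327 in edgeR), in a fit added after the pattern was seen, with 1 library an arm for Tax and JQ1+Tax. For 9 of 20 gene and drug pairs, the partner drug library lay on one side of both control libraries without JQ1 (Pre and DMSO) and on the opposite side of both JQ1 libraries with JQ1. For paclitaxel these were CCND1, CCND3, CDK6, CCNE2 and RBL1, each higher in Tax and lower in JQ1+Tax, at 204.4, 78.3, 13.53, 3.417 and 3.486 CPM in JQ1+Tax. For palbociclib they were CCND3, CCNE2 and RBL1, lower in Pal and at 112.9, 5.157 and 5.61 CPM in JQ1+Pal, and RB1, higher in Pal and at 12.33 CPM in JQ1+Pal. Over all genes tested, 30.4% showed this for paclitaxel and 20.8% for palbociclib, against 5 and 4 of these 10 genes, and some pairs lay within counting error (RB1 in JQ1+Pal over JQ1-B, 0.934, 0.79 to 1.11). Both partner drugs share the Pre, DMSO and JQ1 libraries as controls. In 20 tests for a library far from the others of its exposure (groups of 4), 0 were found. With 4 values such a test flags only an extreme gap, and does not show that no single library weighed on a fit. CCNE1 in Tax, at 16.01 CPM against at most 8.297 in the other libraries without JQ1, was not flagged.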

How the results depend on the processing

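No paired analysis was possible because every group but JQ1 is a single library and the labels give no number that pairs libraries. Among the 10 genes, no value called in the main edgeR fits changed sign under an alternative. Values of these genes not called there did, among them all 10 for paclitaxel (CCNE1 from 0.65 to -0.28 without Tax) and RBL2 with palbociclib (0.49 to -0.14 without Pal). CDK6 with JQ1 kept its sign in 11 of 19 alternatives. RBL2 with JQ1, at 0.69 within the paclitaxel experiment, fell to -0.05 with 1 library left out. For the other named genes, signs under the alternatives were not examined. The number of genes called with JQ1 (3488) was 2062 at a minimum of 20 CPM, 2043 with experiment as a term, 1609, 2318 and 2058 within G1, S and G2/M cells (added later), and 1760 (without JQ1-A) to 4190 (without Pal) with a library left out. Of the 10 genes, JQ1 called 0 (of 4 tested) at 20 CPM, 1 with experiment as a term or in G2/M cells, 4 within the paclitaxel experiment and 1 to 4 with a library left out. For palbociclib (26 genes) the counts were 515 with DESeq2, 205 with no filter, 16 at 20 CPM, 50 with libraries thinned, 0 with experiment as a term or in G1 cells, 210 in S cells and 0 to 938 (without JQ1+Pal) with a library left out, and 0 to 1 of the 10 genes. For paclitaxel (0 genes) they were 9 with DESeq2, 2 with no filter or within the experiment, 1 in S cells and 0 to 4 with a library left out. At 20 CPM, 2 (S) and 3 (G2/M) of the 4 genes tested were called in the phase comparisons. The JQ1 difference of the S step (81 genes) gave 0 genes and 0 of the 10 with phase scored across libraries, and 0 to 285 genes and 0 to 1 of the 10 with a library left out. That of the G2/M step (186 genes) gave 6 and 0 with phase scored across libraries, 0 of the 10 with UMIs not divided, and 29 to 456 genes and 0 to 2 of the 10 with a library left out. Apart from fewer genes or libraries in a fit, the cause was not tested. Palbociclib and paclitaxel each rest on 2 libraries against 6, and CCNE2, at 43 to 125 UMIs a library, on the fewest counts.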
